A study of Mus musculus with 6 samples.

Results

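Transcript levels of 36 genes of glycolysis, pyruvate entry into mitochondria and the pentose phosphate pathway were followed in single-cell libraries of leukaemic mouse bone marrow. The genes were taken by symbol from a given list that leaves out the phosphofructokinases, and all 36 were present in each of the 6 matrices, which list 32932 genes in all. The list holds 3 glucose transporters, 3 hexokinases, 10 later enzymes of glycolysis, 4 genes of lactate production and transport, 8 genes of pyruvate entry and 8 genes of the pentose phosphate pathway. Levels are CPM, the count of unique molecular identifiers (UMIs) scaled to a total of 1e6, summed over the cells of a library or of a cell gate, and they are read along 1 gene at a time.

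Each of the 6 groups was 1 droplet library. The MA9 libraries come from a leukaemia driven by MLL-AF9. Their labels give Shp-1 Δ/Δ (the tyrosine phosphatase gene Ptpn6 deleted) with AraC + Dox, Shp-1 f/f (the floxed, undeleted gene) with AraC + Dox, Shp-1 Δ/Δ with PBS and Shp-1 f/f with PBS. The HM libraries come from a leukaemia driven by Hoxa9 and Meis1, both labelled Shp-1 f/f in their titles, with AraC + Dox or with PBS. AraC is the chemotherapy agent cytarabine, and the second agent is given here as the labels write it. All 6 groups carry a leukaemia oncogene, and the protocol states that it was brought into embryonic stem cells of the mouse. Marrow was flushed and freed of red cells. The Cre that deletes Shp-1, the strain and age of the mice and the number of animals per library are not given in the sources used here. The series title places the study in the low energy metabolism of leukaemia stem cells and the SHP-1 and PFKP axis.

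Glycolysis takes up glucose, phosphorylates it and splits it to pyruvate, with a small yield of ATP. Pyruvate is either reduced to lactate and exported or carried into mitochondria, where the pyruvate dehydrogenase complex turns it into acetyl-CoA, and the pyruvate dehydrogenase kinases switch that complex off. The pentose phosphate pathway branches off after the first phosphorylation. It makes NADPH, which neutrophils use for the oxidative burst, and the ribose of nucleotides.

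After filtering to cells with at least 500 genes and at most 10% mitochondrial UMIs, the libraries held 2755 to 9750 cells and 15111411 to 103581646 UMIs, with a median of 4021 to 10112.5 UMIs per cell. The HM PBS library stood apart: 22.1% of its barcodes were kept and 74.7% were over the mitochondrial limit, against 87.2% to 94.8% kept in the other libraries. The gene named by the labels, Ptpn6, had 43.6 CPM in the MA9 Δ/Δ-labelled AraC + Dox library and 57.7 CPM in the MA9 f/f-labelled AraC + Dox library. It had 172 CPM in the MA9 Δ/Δ-labelled PBS library and 186 CPM in the MA9 f/f-labelled PBS library. In MA9 Ptpn6 thus followed treatment more than genotype, while in HM it had 113 CPM with AraC + Dox and 135 CPM with PBS. A 3′ count need not see a deletion elsewhere in the gene, so the genotypes are given below as labels. Any 2 MA9 libraries shared at most 27 cell barcodes, 0.313% of the smaller library, and the 2 HM libraries shared 6 (0.218%). MA9 barcodes have 16 bases and HM barcodes 17, so sharing between the models could not be seen from whole barcodes. Without replicate libraries no difference between groups was tested, a ratio of 1.5-fold or more is a rule of size, and every interval on such a ratio is a 95% Clopper-Pearson interval that covers counting error only.

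4 promoters are shown because their genes carry the differences described below between labelled genotypes, between treatments or between cycling and non-cycling cells: Eno1 (enolase), Hk2 (hexokinase 2), Ldha (lactate dehydrogenase A) and Slc16a1 (the lactate transporter MCT1). They are RefSeq windows of build GRCm38.p6 that run from 250 bases before to 50 bases after a start site, written 5′ to 3′ on the strand of the gene: chr4:150236458-150236757 on the plus strand for Eno1 (the first of 3 windows listed), chr6:82774405-82774704 on the minus strand for Hk2, chr7:46845554-46845853 on the plus strand for Ldha (the first of 2) and chr3:104638414-104638713 on the plus strand for Slc16a1. Capitals mark each match on either strand to CACGTG, the E-box read by MYC and related factors, or to ACGTG or GCGTG, the core read by hypoxia-inducible factors. A CACGTG also counts as ACGTG on both strands.
Eno1: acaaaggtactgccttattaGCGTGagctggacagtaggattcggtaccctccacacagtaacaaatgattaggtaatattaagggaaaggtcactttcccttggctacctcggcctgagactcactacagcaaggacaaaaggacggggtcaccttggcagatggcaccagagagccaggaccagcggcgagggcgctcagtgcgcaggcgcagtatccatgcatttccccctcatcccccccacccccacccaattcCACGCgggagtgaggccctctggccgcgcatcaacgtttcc
Hk2: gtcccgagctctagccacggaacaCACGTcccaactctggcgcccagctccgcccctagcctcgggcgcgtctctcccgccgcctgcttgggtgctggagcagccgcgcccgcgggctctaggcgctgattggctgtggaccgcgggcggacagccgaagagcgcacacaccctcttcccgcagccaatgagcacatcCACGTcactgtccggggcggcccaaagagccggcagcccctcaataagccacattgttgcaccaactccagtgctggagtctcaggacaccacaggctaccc
Ldha: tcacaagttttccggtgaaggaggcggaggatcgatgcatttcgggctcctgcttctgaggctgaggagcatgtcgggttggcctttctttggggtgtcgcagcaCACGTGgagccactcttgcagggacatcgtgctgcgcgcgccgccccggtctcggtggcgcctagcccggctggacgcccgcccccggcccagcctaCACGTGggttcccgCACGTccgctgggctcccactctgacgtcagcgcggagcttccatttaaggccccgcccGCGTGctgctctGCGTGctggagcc
Slc16a1: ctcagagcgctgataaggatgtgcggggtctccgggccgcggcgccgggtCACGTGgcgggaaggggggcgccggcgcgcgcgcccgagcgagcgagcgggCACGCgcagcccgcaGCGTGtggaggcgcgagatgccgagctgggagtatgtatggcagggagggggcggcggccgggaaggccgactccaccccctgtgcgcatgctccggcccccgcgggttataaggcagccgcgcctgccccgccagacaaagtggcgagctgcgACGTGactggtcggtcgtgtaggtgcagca
Ldha held 2 matches to CACGTG and Slc16a1 held 1, while the windows of Eno1 and Hk2 held 0. Among all 27025 promoters of this length 7.24% held CACGTG, and 3 of the 35 members with a promoter in the table did (Ldha, Slc16a1 and Pdk2). ACGTG was in 14 of the 35 against 19.7% of all promoters, and GCGTG in 23 of the 35 against 32.5% of all promoters. These matches are letters in a window and not measured binding.

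Over whole libraries, 3 members were near the detection limit throughout: Aldoc (an aldolase of brain) at 3.97 CPM or less, Pdk2 at 3.11 CPM or less and Pdk4 at 0.09 CPM or less, the last with no UMI in 2 libraries. Eno3 (the muscle enolase) was low too, at 1.59 to 5.46 CPM, and the other 32 members had at least 4.20 CPM in every library. Some members kept a narrow range along the libraries, such as Hk1 at 31.4 to 46.2 CPM and Pdk3 at 23.2 to 31.4 CPM. Others spread widely, such as Slc2a3 (the high-affinity glucose transporter GLUT3), which stood at 13.04, 31.0, 10.6 and 48.2 CPM in the MA9 libraries labelled Δ/Δ AraC + Dox, f/f AraC + Dox, Δ/Δ PBS and f/f PBS, and at 122 and 220 CPM in the HM AraC + Dox and HM PBS libraries. Its 3 highest levels belonged to both HM libraries and the MA9 library labelled f/f PBS. Eno1 was highest in the MA9 Δ/Δ-labelled AraC + Dox library, at 338 CPM, and lay between 89.2 and 214 CPM in the other 5. Eno1b, a near-identical copy that counting could confuse with Eno1, was counted at 0.443 to 2.65 CPM.

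**Figure D1:**
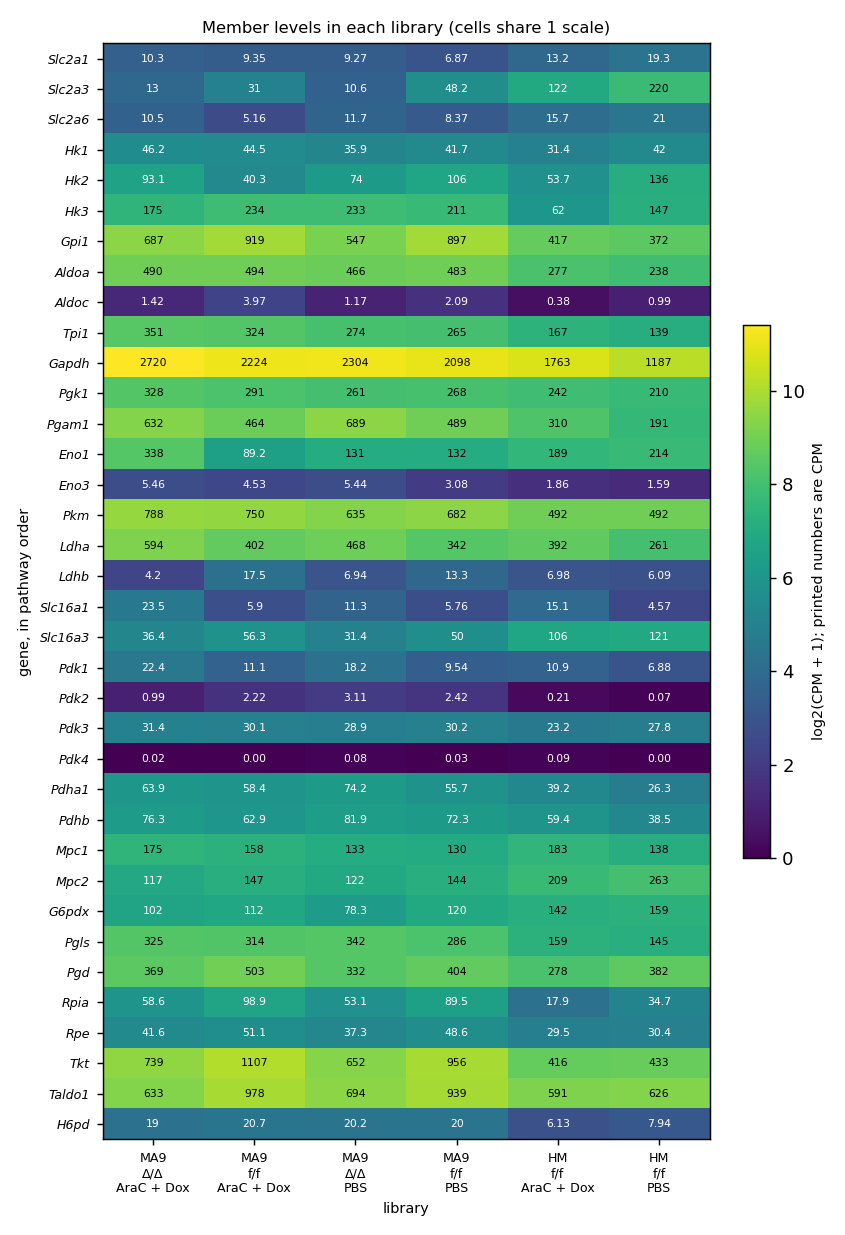
Heat map of the 36 members (down the page, by role) in the 6 libraries (across). Each cell prints the CPM of summed UMIs and is coloured by log2(CPM + 1), with 1 library per group. Lighter colours are higher levels. Along its row Eno1 is lightest in the MA9 Δ/Δ-labelled AraC + Dox library (338 CPM), and Slc2a3 reaches 122 and 220 CPM in the HM libraries.

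Cells were sorted into gates by marker genes that are not members of the list. The members and the gates were, however, chosen with earlier results of these data known. Immature neutrophil-gated cells (1% or more of UMIs from Camp, Ngp and Ltf, the genes of secondary granule proteins) made up 4.72%, 40.3%, 3.22% and 37.5% of the MA9 cells labelled Δ/Δ AraC + Dox, f/f AraC + Dox, Δ/Δ PBS and f/f PBS, and 7.70% and 20.9% of HM AraC + Dox and HM PBS cells. Stem and progenitor-gated cells (2 or more of Cd34, Flt3, Kit, Gata2, Hlf and Sox4) made up 11.3%, 1.03%, 33.0% and 7.05% of the same MA9 libraries, and 0.663% and 0.327% of the HM libraries. The libraries therefore differ strongly in composition: the libraries labelled Δ/Δ held few immature neutrophils and many progenitors. Mature neutrophil-gated cells (Cxcr2 and at least 2 further markers of 7) numbered 126 to 1013 per library and monocyte-gated cells (3 or more of Csf1r, Fn1, F13a1, Ccr2, Ms4a6c and Klf4) 157 to 1958. Cells that entered several gates, 5.85% to 28.4% of a library, were left out.

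The gates carried their own markers but not without others. Each list holds the genes that define its gate, and cells in several gates were left out. A high level of a gate's own list is therefore built in, and only the levels of other lists inform on purity. The immature neutrophil list summed to 43434 to 95816 CPM in its own gate, against 355 to 3023 CPM in monocyte-gated and 240 to 2407 CPM in stem and progenitor-gated cells. The mature neutrophil list summed to 4973 to 51514 CPM in its own gate, lowest in the MA9 Δ/Δ-labelled AraC + Dox library, where promyelocyte genes stood at 19626 CPM in the same cells. In the immature gate the mature list stood at 255 to 534 CPM in MA9 and at 5593 and 13489 CPM in the HM libraries. Stem and progenitor-gated cells held their own list at 385 to 1304 CPM, a range that takes in the 503 to 630 CPM of that list in primary granule-high cells. They also held the promyelocyte list at 7596 to 17178 CPM and the monocyte list at 721 to 2385 CPM. As a measure of free RNA, Camp, Ngp and Ltf in T cell-gated cells reached 0.0831% to 0.960% of their level in immature neutrophils in MA9, and 1.45% and 3.31% in HM.

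Gates were compared within libraries by edgeR's quasi-likelihood test on UMIs summed per gate and library, with the library as a block and Benjamini-Hochberg adjustment over all genes tested. Values of these tests are CPM after edgeR's trimmed-mean (TMM) scaling, which levels the bulk of genes between the 2 gates.

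Mature neutrophil-gated cells had more transcript of the glucose transporters than immature neutrophil-gated cells, more of the lactate exporter Slc16a3, and a split pentose phosphate pathway. Of the 32 members tested, 8 rose (25.0%) and 6 fell (18.8%), against 25.3% and 21.8% of all 9018 genes tested, so the counts alone do not set the list apart. All 3 transporters rose. Slc2a6 (GLUT6, a little-studied member of the family) had 25.6, 69.2 and 104 CPM as the lowest, median and highest of 6 libraries in mature neutrophil-gated cells, against 0.324, 1.14 and 10.2 CPM in immature ones. The ranges did not overlap, and the log2 fold change was 5.33 (SE 0.46, adjusted p = 8.80e-06 by edgeR's quasi-likelihood test, higher in 6 of 6 libraries).

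Slc2a1 (GLUT1, the widespread basal transporter) had 12.6, 33.2 and 68.2 CPM in mature neutrophil-gated cells, against 4.25, 6.33 and 12.1 CPM in immature ones (log2 fold change 2.18, SE 0.25, adjusted p = 4.77e-05, edgeR). Slc2a3 had 77.7, 245 and 676 CPM in mature neutrophil-gated cells, against 39.5, 68.2 and 265 CPM in immature ones (log2 fold change 1.65, SE 0.30, adjusted p = 0.000955, edgeR). Slc2a1 was higher in 6 of 6 libraries with no overlap of the ranges, and Slc2a3 in 5 of 6, the exception being the MA9 Δ/Δ-labelled AraC + Dox library with 77.7 CPM in mature and 80.8 CPM in immature cells. That is the library whose mature gate held the promyelocyte genes named above. Slc16a3 (MCT4, the transporter that exports lactate from glycolytic cells) had 109, 224 and 563 CPM in mature neutrophil-gated cells, against 47.7, 52.0 and 168 CPM in immature ones, and was higher in 6 of 6 libraries (log2 fold change 1.92, SE 0.20, adjusted p = 2.53e-05, edgeR). Ldhb, the lactate dehydrogenase subunit of heart and brain, fell in 6 of 6 libraries, with 0.449, 3.13 and 5.02 CPM in mature neutrophil-gated cells and 5.38, 15.7 and 21.1 CPM in immature ones (log2 fold change -2.52, SE 0.36, adjusted p = 0.000194, edgeR).

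None of the 3 hexokinases and none of the 6 tested genes of pyruvate entry passed the test (adjusted p from 0.0837 to 0.601, edgeR). Within glycolysis Pkm (pyruvate kinase, the last step) rose by 0.71 on the log2 scale (SE 0.16, adjusted p = 0.00348, edgeR), with 778, 988 and 1269 CPM in mature neutrophil-gated cells and 430, 610 and 702 CPM in immature ones. Aldoa (aldolase A) rose by 0.49 (adjusted p = 0.0222) and Tpi1 (triosephosphate isomerase) fell by 0.56 (adjusted p = 0.0148) on the log2 scale in the same edgeR fit. Both are weak calls, which leaving out single libraries took to adjusted p of 0.0573 to 0.0900 for Aldoa (the MA9 libraries labelled f/f AraC + Dox, Δ/Δ PBS and f/f PBS, and HM PBS) and 0.0583 to 0.0613 for Tpi1 (either f/f-labelled MA9 library).

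In the pentose phosphate pathway Taldo1 (transaldolase) and Pgd (6-phosphogluconate dehydrogenase, the second NADPH-making step) rose, while Pgls, Rpia, Rpe and Tkt fell and G6pdx and H6pd did not pass. Taldo1 had 705, 1641 and 1773 CPM in mature neutrophil-gated cells and 429, 795 and 874 CPM in immature ones (log2 fold change 1.01, SE 0.21, adjusted p = 0.00203, edgeR), with overlap of the ranges but a higher value in 6 of 6 libraries. Rpe (ribulose-phosphate epimerase) had 16.6, 22.0 and 28.6 CPM in mature neutrophil-gated cells and 44.6, 47.5 and 49.5 CPM in immature ones (log2 fold change -1.11, SE 0.16, adjusted p = 0.000197, edgeR). The ranges of Rpe did not overlap. Rpia (ribose-phosphate isomerase) fell by 0.99 and Pgls (the lactonase after the first step) by 1.04 on the log2 scale, each lower in 6 of 6 libraries, with adjusted p of 0.000823 and 0.00174 (edgeR). G6pdx, the glucose-6-phosphate dehydrogenase that opens the pathway, had 101, 208 and 270 CPM in mature neutrophil-gated cells and 111, 175 and 309 CPM in immature ones (log2 fold change 0.02, SE 0.18, adjusted p = 0.938, edgeR). Tkt (transketolase) fell by 0.40 (adjusted p = 0.0429), a call that leaving out 1 of the MA9 libraries labelled f/f AraC + Dox, Δ/Δ PBS or f/f PBS, or HM AraC + Dox, took to 0.0974 to 0.125. Without the library as a block, the calls on Slc2a3 (adjusted p = 0.0662) and Rpia (adjusted p = 0.101) were lost as well. Mature neutrophil-gated cells also held fewer UMIs (median 2149.5 to 4772 per cell, against 3529 to 10242.5 in immature ones) and less of the cycling list (97.3 to 1405 CPM, against 822 to 2130 CPM); the part of either in these differences was not tested, beyond cells of 2000 to 6000 UMIs alone, where 7 of 27 tested members rose and 8 fell, beside 1187 higher and 1305 lower of all 4800 genes tested there. There the transporters Slc2a3, Slc2a6 and Slc16a3 were called again, and Slc2a1 was too low there to be tested.

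**Figure D2:**
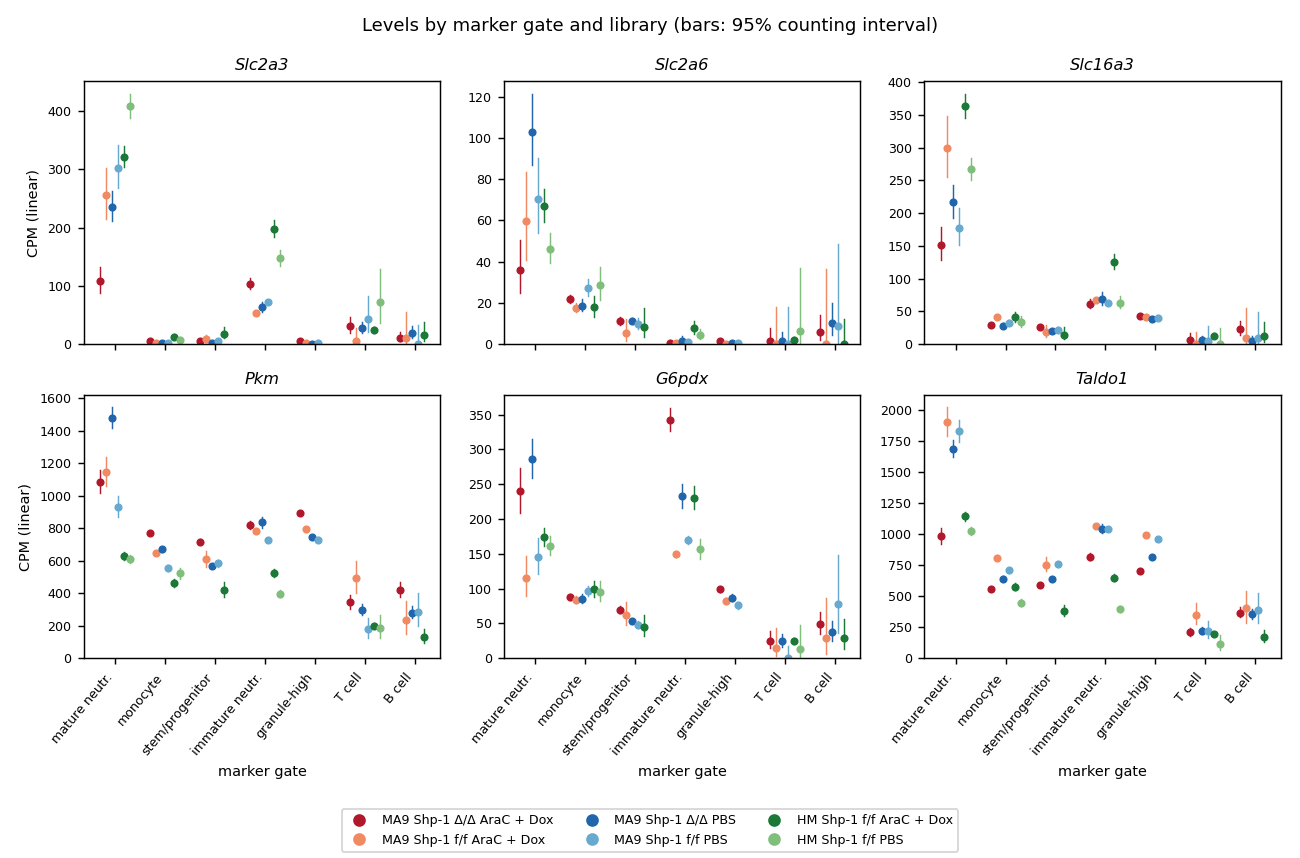
CPM of Slc2a3, Slc2a6, Slc16a3, Pkm, G6pdx and Taldo1 (1 panel each) by marker gate, with 1 point and its 95% counting interval for each library; levels are plain CPM of summed UMIs, before TMM scaling. Slc2a6 and Slc16a3 stand highest in mature neutrophil-gated cells (Slc16a3 at 152 to 363 CPM), G6pdx stands high in both neutrophil gates.

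Monocyte-gated cells differed from immature neutrophil-gated cells mainly by lower levels across the list. Of 33 members tested 3 rose (9.09%) and 20 fell (60.6%), against 23.1% and 22.8% of all 10131 genes tested, and the median log2 fold change was -0.57 for the members and 0.03 for all genes. The size of that shift depends on scaling. Without TMM, on total UMIs, the monocyte values move up by 0.43 on the log2 scale, as a mean over libraries. With that scaling 8 members rose and 11 fell, against 4597 and 1126 of all genes. The 11 that fell under both scalings were Slc2a3, Hk1, Gpi1, Ldhb, Slc16a3, Pdk3, G6pdx, Pgd, Rpia, Rpe and Tkt, while Pgls changed sign to 0.057 (adjusted p = 0.768, edgeR).

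Slc2a3 differed most among the members called, with 1.36, 3.05 and 12.1 CPM in monocyte-gated cells, against 50.1, 86.9 and 338 CPM in immature neutrophil-gated ones (log2 fold change -4.99, SE 0.14, adjusted p = 1.58e-07, edgeR). Slc2a6 went the other way, with 14.2, 17.7 and 25.2 CPM in monocyte-gated cells, against 0.411, 1.45 and 12.96 CPM in immature neutrophil-gated ones (log2 fold change 3.31, SE 0.59, adjusted p = 0.00175, edgeR). Neither pair of ranges overlapped, and the 2 transporters went in opposite directions. Hk1 fell by 1.24 (adjusted p = 4.01e-05) and Hk3 (the hexokinase of myeloid cells) by 0.77 (adjusted p = 0.0266) on the log2 scale in the edgeR test, and Hk2 had a log2 fold change of -0.05 (adjusted p = 0.832). Leaving out either HM library took Hk3 past the threshold, to adjusted p of 0.0563 and 0.0571.

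Among the later enzymes of glycolysis, Gpi1 (glucose-6-phosphate isomerase) had 196, 370 and 396 CPM in monocyte-gated cells and 613, 1002 and 1095 CPM in immature neutrophil-gated ones (log2 fold change -1.50, SE 0.10, adjusted p = 3.40e-06, edgeR). Pgk1, Eno1 and Pkm also fell, by 0.57 to 0.61 on the log2 scale, and Eno3 rose by 1.69 (adjusted p = 0.00254, edgeR) at levels of 2.08 to 12.2 CPM in monocyte-gated and 0.498 to 2.38 CPM in immature neutrophil-gated cells. The call on Eno1 was lost without any 1 library other than HM PBS (adjusted p 0.0550 to 0.115), and that on Eno3 without the MA9 f/f-labelled AraC + Dox library, where it was not tested. Of the lactate genes Ldha, Ldhb and Slc16a3 fell by 0.56, 2.12 and 1.51. Pdk1, a kinase that switches pyruvate dehydrogenase off, rose by 1.22 (SE 0.20, adjusted p = 0.000941, edgeR), with 10.1, 11.7 and 17.0 CPM in monocyte-gated and 1.99, 6.07 and 7.27 CPM in immature neutrophil-gated cells, whereas its relative Pdk3 fell by 0.99 (adjusted p = 0.000242). The mitochondrial pyruvate carrier genes Mpc1 and Mpc2 fell by 0.44 and 0.75, the call on Mpc1 being lost without the MA9 Δ/Δ-labelled PBS library (adjusted p = 0.0523). The calls on Ldha and Mpc2 were not kept under every alternative listed at the outset either.

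In the pentose phosphate pathway 7 of 8 members fell and the median log2 fold change was -0.97, with H6pd (the enzyme of the endoplasmic reticulum) at -0.31 (adjusted p = 0.0625, edgeR). G6pdx had 65.4, 73.7 and 100 CPM in monocyte-gated cells, against 141, 221 and 394 CPM in immature neutrophil-gated ones (log2 fold change -1.59, SE 0.18, adjusted p = 0.000118, edgeR). Tkt had 291, 475 and 574 CPM in monocyte-gated cells, against 702, 966 and 1241 CPM in immature neutrophil-gated ones (log2 fold change -1.17, SE 0.12, adjusted p = 5.30e-05, edgeR). In both genes the ranges did not overlap. Pgd, Rpia, Rpe and Taldo1 fell by 0.91, 1.03, 1.07 and 0.80, and Pgls by 0.37, a call lost without 1 of the MA9 libraries labelled f/f AraC + Dox, Δ/Δ PBS or f/f PBS (adjusted p 0.0540 to 0.0779). Monocyte-gated cells of the HM AraC + Dox library also held dendritic cell markers at 4527 CPM, against 109 to 828 CPM in the other 5, and the part of these markers was not tested beyond leaving that library out, which gave 5 members higher and 18 lower of 34 tested, beside 2316 higher and 2297 lower of all 10475 genes.

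Stem and progenitor-gated cells had lower levels of most members that differed from immature neutrophil-gated cells, the same cells that the mature neutrophil and monocyte comparisons use. In 5 libraries (the HM PBS library held 9 such cells and was not used), 3 of 33 tested members rose (9.09%) and 19 fell (57.6%), against 19.2% and 20.2% of all 10065 genes tested, with a median log2 fold change of -0.48 for the members and 0.02 for all genes. On total UMIs the stem and progenitor values move up by 0.42 on the log2 scale, as a mean over libraries. With that scaling 7 members rose and 12 fell, against 3926 and 1039 of all genes. The 12 were Slc2a3, Hk1, Gpi1, Eno1, Ldhb, Slc16a3, Mpc2, G6pdx, Pgd, Rpe, Tkt and Taldo1, and Gapdh changed sign to 0.016 (adjusted p = 0.937, edgeR).

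Values are given in the order MA9 Δ/Δ AraC + Dox, f/f AraC + Dox, Δ/Δ PBS and f/f PBS, then HM AraC + Dox. Slc2a3 had 4.24, 6.54, 1.66, 4.54 and 18.7 CPM in stem and progenitor-gated cells, against 106, 51.5, 64.2, 72.8 and 351 CPM in immature neutrophil-gated ones (log2 fold change -4.42, SE 0.28, adjusted p = 3.26e-05, edgeR). It was lower in 5 of 5 libraries, and the HM library was the highest in both gates. Slc2a6 had 9.09, 4.09, 8.99, 7.85 and 8.73 CPM in stem and progenitor-gated cells, against 0.427, 0.423, 1.74, 1.25 and 13.5 CPM in immature neutrophil-gated ones, so that it was higher in the 4 MA9 libraries and lower in HM (log2 fold change 2.21, SE 0.56, adjusted p = 0.0151, edgeR). Leaving out 1 of the libraries of Δ/Δ AraC + Dox, Δ/Δ PBS or f/f PBS took that adjusted p to 0.0540 to 0.0832. G6pdx had 56.6, 49.0, 42.2, 39.4 and 46.2 CPM in stem and progenitor-gated cells, against 350, 145, 237, 171 and 409 CPM in immature neutrophil-gated ones (log2 fold change -2.38, SE 0.22, adjusted p = 0.000131, edgeR). Its 5 progenitor values lay within a narrow band while the neutrophil values spread from 145 to 409 CPM.

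Slc16a3 had 21.3, 13.9, 16.2, 17.8 and 15.0 CPM in stem and progenitor-gated cells, against 62.5, 65.3, 70.4, 63.5 and 223 CPM in immature neutrophil-gated ones (log2 fold change -2.18, SE 0.28, adjusted p = 0.000619, edgeR). Gpi1 had 499, 559, 399, 559 and 371 CPM in stem and progenitor-gated cells, against 1125, 1083, 997, 1064 and 942 CPM in immature neutrophil-gated ones (log2 fold change -1.14, SE 0.13, adjusted p = 0.000405, edgeR). The 2 groups did not overlap in either gene. Pdk1 was the clearest member in the other direction, with 18.6, 11.4, 13.6, 10.5 and 18.7 CPM in stem and progenitor-gated cells, against 7.47, 6.10, 6.62, 4.24 and 2.07 CPM in immature neutrophil-gated ones (log2 fold change 1.33, SE 0.25, adjusted p = 0.00390, edgeR). Pdha1, the catalytic subunit that the kinases act on, rose by 0.35 (adjusted p = 0.0413), a call lost without any 1 MA9 library (adjusted p 0.0843 to 0.172).

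By role, 6 of 8 pentose phosphate genes fell (median log2 fold change -0.97), as did 5 of 9 later glycolytic enzymes (Gpi1, Gapdh, Pgk1, Eno1 and Pkm), 3 of 4 lactate genes (Ldha, Ldhb and Slc16a3), and Hk1 and Hk2 among the hexokinases. Eno1 fell by 0.97 (adjusted p = 0.00166), Pkm by 0.77 (adjusted p = 0.00318) and Pgk1 by 0.70 (adjusted p = 0.00255) on the log2 scale in the edgeR test. Pkm and Pgk1 kept their calls under every alternative listed at the outset in which they were tested, and Eno1 did not. On total UMIs, chosen after seeing the data, Eno1 was still called lower, while Pkm and Pgk1 were not. Among the pentose phosphate genes, only the calls on G6pdx, Pgd, Rpe, Tkt and Taldo1 were kept under every alternative listed at the outset. Weaker calls were those on Gapdh and Ldha, lost without any 1 MA9 library (adjusted p 0.0573 to 0.127), on Hk2 and Pdk3, lost without any 1 of the same libraries of Δ/Δ AraC + Dox, Δ/Δ PBS or f/f PBS (adjusted p 0.0569 to 0.141), and on Ldhb, lost without the f/f-labelled PBS library (adjusted p = 0.0626). Pgam1 (phosphoglycerate mutase) and Tpi1 did not pass, at 0.14 (adjusted p = 0.613) and -0.11 (adjusted p = 0.597). Among cells of 6000 to 12000 UMIs alone the counts were 3 higher and 20 lower of 33 tested, beside 2067 higher and 2048 lower of all 9359 genes. These are transcripts per UMI of a cell, and neither enzyme activity nor flux was measured.

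**Figure D3:**
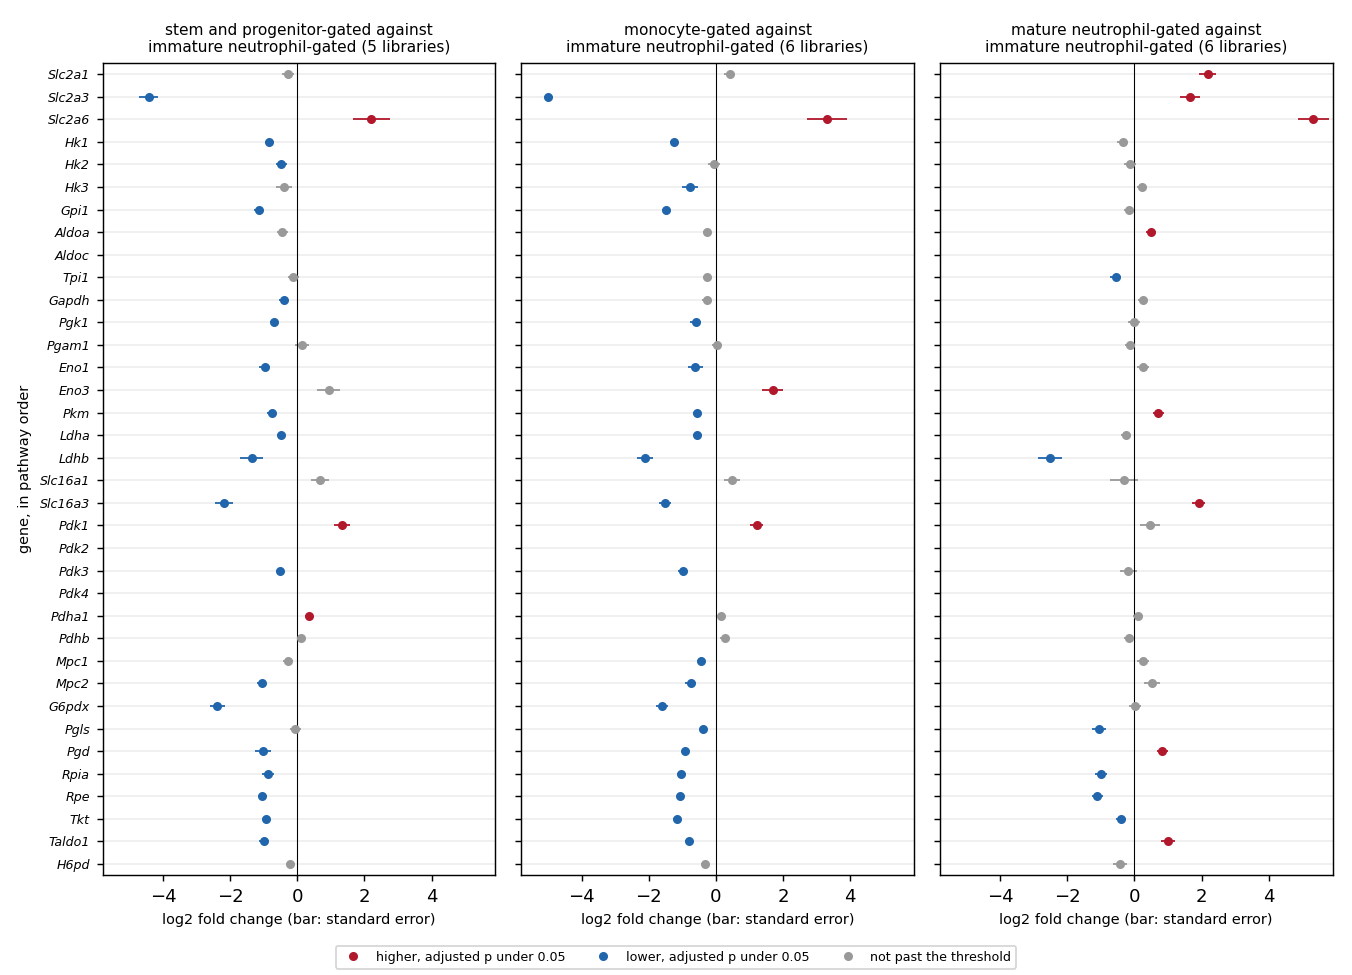
Log2 fold change of each tested member (down the page) in stem and progenitor-gated, monocyte-gated and mature neutrophil-gated cells over immature neutrophil-gated cells, with bars of 1 SE from edgeR's quasi-likelihood fit; red points are higher and blue points lower at an adjusted p under 0.05, grey points did not pass. Slc2a3 lies at -4.42 and -4.99 in stem and progenitor-gated and monocyte-gated cells and at 1.65 in mature neutrophil-gated cells.

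Within stem and progenitor-gated cells of the 4 MA9 libraries, cells with 3 or more of 6 mitotic markers (Mki67, Top2a, Cdk1, Ccnb1, Cenpf and Birc5) carried more transcript of most glycolytic enzymes than cells with none. Of 32 members tested 15 rose (46.9%) and 4 fell (12.5%), against 23.2% and 24.4% of all 9347 genes tested, with a median log2 fold change of 0.27 for the members and -0.03 for all genes. Among the later glycolytic enzymes 7 of 9 rose (Gpi1, Tpi1, Gapdh, Pgk1, Pgam1, Eno1 and Pkm), and so did 3 of 4 lactate genes and 4 of 8 pentose phosphate genes (G6pdx, Pgd, Rpia and Tkt). None of the 6 tested genes of pyruvate entry rose. Cycling cells were also far deeper, with a median of 12410 to 15590 UMIs against 4183 to 5890 in non-cycling cells, and held more of the promyelocyte list (10954 to 21077 CPM, against 1839 to 7551 CPM) and less of the stem list (760 to 1062 CPM, against 1521 to 2173 CPM). Among cells of 6000 to 12000 UMIs alone, in 3 of these libraries, Tpi1 and Gapdh were the only members that rose, as given below.

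In the order Δ/Δ AraC + Dox, f/f AraC + Dox, Δ/Δ PBS and f/f PBS, Slc16a1 had 29.1, 17.1, 13.3 and 7.18 CPM in cycling cells, against 6.78, 5.54, 2.43 and 2.28 CPM in non-cycling cells (log2 fold change 2.19, SE 0.28, adjusted p = 1.30e-05, edgeR). Ldha had 640, 377, 495 and 406 CPM in cycling cells, against 237, 200, 268 and 235 CPM in non-cycling cells (log2 fold change 1.01, SE 0.12, adjusted p = 4.78e-06, edgeR). Both lactate genes were higher in cycling cells of 4 of 4 libraries, without overlap between the groups. Slc16a1 had only 25 UMIs over the 4 non-cycling sums, so its non-cycling values lie near the counting floor. Slc2a6 was the reverse, with 6.71, 3.11, 6.48 and 1.44 CPM in cycling cells, against 35.0, 5.54, 23.0 and 21.7 CPM in non-cycling cells (log2 fold change -2.24, SE 0.27, adjusted p = 7.04e-06, edgeR). The f/f-labelled AraC + Dox library held 31 non-cycling cells, and the 5.54 CPM of Slc16a1 and of Slc2a6 there rest on very few UMIs. Non-cycling cells also held dendritic markers at 185 to 1453 CPM and mast and basophil markers at 41.8 to 463 CPM, against 7.90 to 125 CPM and 7.90 to 82.8 CPM in cycling cells, and the part of these other cells was not tested.

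Fewer members were called, and fewer cells and libraries entered, when both gates were restricted to cells of 6000 to 12000 UMIs. A gap in depth remained there, with a median of 9892.5 UMIs in cycling and 6971 in non-cycling cells of Δ/Δ AraC + Dox, 9742 and 7532.5 in Δ/Δ PBS, and 9993 and 8035 in f/f PBS. In these 3 libraries 2 of 29 tested members rose (Tpi1 and Gapdh) and 1 fell (Hk2, by 0.62 on the log2 scale, adjusted p = 0.0396, edgeR), beside 627 higher and 311 lower of all 8402 genes. There Slc2a6 stood at -0.76 (adjusted p = 0.155), Ldha at 0.25 (adjusted p = 0.270), Eno1 at 0.40 (adjusted p = 0.177) and Gpi1 at -0.15 (adjusted p = 0.563). In the full comparison Aldoc, Ldhb and Pdha1 fell and Hk1 and Slc16a3 rose. Of these, Hk1, Ldhb, Slc16a3 and Pdha1 lost their calls without the MA9 Δ/Δ-labelled PBS library (adjusted p 0.108 to 0.372), where 29 members were tested and Slc16a1, Slc2a6 and Aldoc were not. Slc16a3 lost its call also without the Δ/Δ-labelled AraC + Dox library (0.0545), and Pdha1 also without either labelled f/f (0.0810 and 0.0869). Aldoc had only 34 UMIs over the non-cycling sums, and its call was not kept under every alternative listed at the outset.

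T cell-gated and B cell-gated cells, the lymphocytes of the marrow, differed in few members: 2 of 25 tested rose in T cells (8.0%) and 3 fell (12%), against 10.3% and 9.43% of all 5697 genes tested, shares near the background. In the order MA9 Δ/Δ AraC + Dox, f/f AraC + Dox, Δ/Δ PBS and f/f PBS, then HM AraC + Dox, Hk1 had 65.4, 67.6, 42.7, 59.6 and 30.8 CPM in T cell-gated cells, against 17.9, 0, 16.8, 7.58 and 3.88 CPM in B cell-gated ones (log2 fold change 1.97, SE 0.35, adjusted p = 0.00142, edgeR). Ldha had 372, 306, 386, 293 and 402 CPM in T cell-gated cells, against 297, 103, 222, 159 and 132 CPM in B cell-gated ones (log2 fold change 0.97, SE 0.22, adjusted p = 0.00665, edgeR). Both were higher in T cells of 5 of 5 libraries, but the call on Ldha was not kept under every alternative listed at the outset. Pgls fell by 1.36 (adjusted p = 0.00398), Hk3 by 1.29 (adjusted p = 0.00903) and Pgd by 0.89 (adjusted p = 0.0441) on the log2 scale in T cells. The call on Pgd was lost without any 1 of the 4 MA9 libraries (adjusted p 0.0745 to 0.173), and Hk1 and Hk3 could not be tested without either library labelled MA9 Δ/Δ. B cell-gated cells held their own list at 4909 to 7794 CPM and the dendritic cell list at 3318 to 16892 CPM, against 0 to 207 CPM of the dendritic cell list in T cell-gated cells, and its part was not tested. B cell-gated cells numbered 37 in each MA9 library labelled f/f, where they held stem and progenitor markers at 1563 and 1659 CPM against 184 to 226 CPM in the other 3.

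Of 31 other genes of the pathway, Adpgk, which phosphorylates glucose with ADP, was low in monocyte-gated and in stem and progenitor-gated cells. It averaged 25.2 CPM in monocyte-gated and 431 CPM in immature neutrophil-gated cells (log2 fold change -3.94, SE 0.18, adjusted p = 8.80e-07, edgeR), and 28.5 CPM in stem and progenitor-gated and 352 CPM in immature neutrophil-gated cells of the 5 libraries used there (log2 fold change -3.48, SE 0.23, adjusted p = 3.32e-05, edgeR). In mature over immature neutrophils its log2 fold change was -0.34 (adjusted p = 0.171). In that last comparison 7 of 18 tested genes rose and 2 fell (Ldhc and Gpd2), beside 25.3% and 21.8% of all genes. Txnip and Arrdc4, arrestins that curb glucose uptake, rose by 2.38 and 2.40 on the log2 scale (adjusted p = 5.82e-06 and 1.42e-05, edgeR), as did Pfkfb3 and Pfkfb4 (bifunctional regulators of phosphofructokinase), Hif1a, Pfkl and Pfkp. In monocytes 7 of 20 rose and 6 fell, beside 23.1% and 22.8% of all genes. In stem and progenitor cells 4 of 21 rose and 5 fell, beside 19.2% and 20.2% of all genes. In T over B cells 2 of 9 rose (Pfkp and Hif1a) and none fell, beside 10.3% and 9.43% of all genes. In cycling over non-cycling cells 6 of 18 rose and 3 fell (Txnip, Arrdc4 and Hif1a), beside 23.2% and 24.4% of all genes. Txnip fell by 2.29 on the log2 scale (adjusted p = 1.80e-09, edgeR).

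The MA9 Δ/Δ-labelled PBS library was set against the MA9 f/f-labelled PBS library. Counting the 33 members that reached 5 CPM in 1 of them or both, 3 stood 1.5-fold or more higher (9.09%) and 6 lower (18.2%), against 15.1% and 8.75% of all 9406 genes measured. The split of all genes depends on scaling: 1423 were higher and 823 lower on total UMIs, 900 and 1177 with median-of-ratios size factors (a shift of -0.17 on the log2 scale), and 919 and 1154 without the most abundant genes. Slc2a3 stood at 10.6 CPM in the Δ/Δ-labelled PBS library and at 48.2 CPM in the f/f-labelled PBS library, a log2 ratio of -2.18 (95% counting interval -2.29 to -2.08). Over the same libraries the immature neutrophil list summed to 3183 CPM in Δ/Δ PBS and 34295 CPM in f/f PBS. Inside the gates the shares of all genes 1.5-fold higher and lower were 3.48% and 4.55% in immature neutrophil-gated cells, 12.9% and 12.5% in mature neutrophil-gated cells, 13.9% and 12.7% in monocyte-gated cells, 3.71% and 4.34% in stem and progenitor-gated cells, 19.4% and 15.9% in T cell-gated cells and 5.42% and 5.8% in primary granule-high cells. Within immature neutrophil-gated cells Slc2a3 had 63.1 CPM in Δ/Δ PBS and 72.5 CPM in f/f PBS (log2 ratio -0.20). The log2 ratio was -0.36 in mature neutrophil-gated and -0.68 in T cell-gated cells, so all 3 gates in which Slc2a3 could be measured were below 0 and 1 was past 1.5-fold lower. In such sums fewer cells of a type and less RNA per cell cannot be told apart.

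G6pdx, Ldhb, Slc16a3, Gpi1 and Rpia were the other members lower in the Δ/Δ-labelled PBS library, with log2 ratios of -0.61, -0.94, -0.67, -0.71 and -0.75. When 4 myeloid gates were given equal weight in both libraries, G6pdx moved to 0.51, Ldhb to 0.022 and Slc16a3 to 0.18, and 1 member in all was 1.5-fold lower. Rpia was below 0 in 5 of 6 gates and Gpi1 in 6 of 6 (-0.57 to -0.00). The members higher in the Δ/Δ-labelled PBS library were Eno3 (5.44 CPM in Δ/Δ PBS and 3.08 CPM in f/f PBS), Slc16a1 (11.3 and 5.76 CPM in the same order) and Pdk1 (18.2 and 9.54 CPM in the same order), with log2 ratios of 0.82, 0.98 and 0.93. Pdk1 was also higher inside both gates in which it could be measured (0.98 and 1.30). Ldha, at 468 CPM in Δ/Δ PBS and 342 CPM in f/f PBS, did not reach 1.5-fold over the library (log2 ratio 0.45), yet it was above 0 in 6 of 6 gates (0.42 to 1.02). Eno1 did not reach 1.5-fold over the libraries either, while it was above 0 in 6 of 6 gates (0.14 to 1.14). It was past 1.5-fold higher in 3 of them, which do not include the immature neutrophil or the stem and progenitor gate. Pgam1, Pgk1 and Pdha1 were likewise above 0 in 6 of 6 gates, with medians of 0.28, 0.26 and 0.24.

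Under chemotherapy the MA9 Δ/Δ-labelled AraC + Dox library was set against the MA9 f/f-labelled AraC + Dox library. Of 33 measured members 5 were at least 1.5-fold higher (15.2%) and 5 lower (15.2%), against 16.6% and 12.7% of all 9306 genes, shares near the background. All genes split 1541 higher to 1178 lower on total UMIs, 1349 to 1366 with median-of-ratios size factors and 1206 to 1561 without the most abundant genes. Eno1, which makes phosphoenolpyruvate, stood far apart, with 338 CPM in the Δ/Δ-labelled AraC + Dox library and 89.2 CPM in the f/f-labelled AraC + Dox library (log2 ratio 1.92, counting interval 1.89 to 1.96). Inside the gates the shares of all genes 1.5-fold higher and lower were 7.97% and 11.1% in immature neutrophil-gated cells, 36% and 21.2% in mature neutrophil-gated cells, 13.7% and 17.1% in monocyte-gated cells, 9.64% and 15.2% in stem and progenitor-gated cells and 11.4% and 17.1% in primary granule-high cells. The gap was there inside each gate measured: in the same order Eno1 stood at 426 and 92.0 CPM in mature neutrophil-gated, 385 and 111 CPM in immature neutrophil-gated, 348 and 57.5 CPM in monocyte-gated, 295 and 65.8 CPM in stem and progenitor-gated and 383 and 92.9 CPM in primary granule-high cells. The log2 ratios in these 5 gates ran from 1.80 to 2.60.

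Hk2, the inducible hexokinase bound to mitochondria, had 93.1 CPM in the Δ/Δ-labelled AraC + Dox library and 40.3 CPM in the f/f-labelled AraC + Dox library (log2 ratio 1.21, counting interval 1.15 to 1.26). It was above 0 in 5 of 5 gates (0.52 to 2.18) and past 1.5-fold in 4 of them. Slc16a1 had 23.5 CPM in Δ/Δ AraC + Dox and 5.9 CPM in f/f AraC + Dox (log2 ratio 1.99), and was past 1.5-fold in 3 of 3 gates. Ldha was above 0 in 5 of 5 gates as well (0.57 to 0.88), with 594 CPM in Δ/Δ AraC + Dox and 402 CPM in f/f AraC + Dox over the libraries (log2 ratio 0.56). Pdk1 was higher with a log2 ratio of 1.02, and by 0.64 to 0.77 in 3 of 3 gates. Slc2a6 (log2 ratio 1.03) moved to -0.26 with equal weight of the 4 myeloid gates.

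On the lower side, Ldhb had 4.20 CPM in the Δ/Δ-labelled AraC + Dox library and 17.5 CPM in the f/f-labelled AraC + Dox library (log2 ratio -2.06, counting interval -2.21 to -1.90), and -2.15 to -1.65 in 3 of 3 gates. Ldhb encodes the subunit that favours the turn of lactate to pyruvate. Slc2a3, Slc16a3, Rpia and Taldo1 were lower with log2 ratios of -1.25, -0.63, -0.75 and -0.63. Slc2a3 was split between gates, at 0.96 in immature neutrophil-gated and -1.24 in mature neutrophil-gated cells. The mature gate of the Δ/Δ-labelled AraC + Dox library held 126 cells, with promyelocyte genes at 19626 CPM, and their part was not tested. Taldo1 was below 0 in 5 of 5 gates (-0.95 to -0.36).

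AraC + Dox against PBS in the MA9 libraries labelled f/f gave few differences. None of 32 measured members was 1.5-fold higher (0%) and 3 were lower (9.38%), against 1.89% and 3.58% of all 9099 genes. The immature neutrophil list stood at 32928 CPM in AraC + Dox and 34295 CPM in PBS. Stem and progenitor-gated cells were 1.03% of the cells kept in AraC + Dox and 7.05% in PBS, and monocyte-gated cells 18.9% and 11.9% in the same order. Erythroid markers stood at 210 CPM in AraC + Dox and 714 CPM in PBS, and the part of the erythroid markers was not tested. With equal weight of 4 myeloid gates in both libraries, 3 members were 1.5-fold higher and 1 was lower. Hk2 stood at 40.3 CPM in the f/f-labelled AraC + Dox library and at 106 CPM in the f/f-labelled PBS library (log2 ratio -1.39, counting interval -1.45 to -1.33), and was past 1.5-fold lower in 5 of 5 gates (-2.54 to -1.20). Inside the gates the shares of all genes 1.5-fold higher and lower were 1.95% and 2.12% in immature neutrophil-gated cells, 11.9% and 14.6% in mature neutrophil-gated cells, 1.61% and 2.96% in monocyte-gated cells, 7.97% and 4.78% in stem and progenitor-gated cells and 1.57% and 1.96% in primary granule-high cells. In monocyte-gated cells Hk2 had 59.2 CPM in f/f AraC + Dox and 152 CPM in f/f PBS. Slc2a3 and Slc2a6 had log2 ratios of -0.64 and -0.70, and Eno1 of -0.565, below 0 in 5 of 5 gates (-0.62 to -0.48). Inside the 2 gates in which each could be measured, Slc2a3 stood at -0.45 and -0.24, and Slc2a6 at -0.64 and -0.25.

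In the MA9 libraries labelled Δ/Δ, 2 of 33 measured members were 1.5-fold higher with AraC + Dox than with PBS (6.06%) and 1 lower (3.03%), against 3.59% and 7.44% of all 9341 genes. All genes split 335 higher to 695 lower on total UMIs, and 420 to 543 with median-of-ratios size factors. Eno1 stood at 338 CPM in the Δ/Δ-labelled AraC + Dox library and at 131 CPM in the Δ/Δ-labelled PBS library (log2 ratio 1.37, counting interval 1.34 to 1.40), and was past 1.5-fold higher in 7 of 7 gates (0.69 to 1.48). Inside the gates the shares of all genes 1.5-fold higher and lower were 5.14% and 5.91% in immature neutrophil-gated cells, 35.0% and 24.2% in mature neutrophil-gated cells, 2.0% and 2.85% in monocyte-gated cells, 3.26% and 5.02% in stem and progenitor-gated cells, 11.9% and 7.61% in B cell-gated cells, 9.32% and 8.54% in T cell-gated cells and 2.77% and 5.3% in primary granule-high cells. The 7 gates include T cell-gated cells, at 191 CPM in Δ/Δ AraC + Dox and 118 CPM in Δ/Δ PBS, and B cell-gated cells, at 192 and 70.3 CPM in the same order. Slc16a1 had 23.5 CPM in Δ/Δ AraC + Dox and 11.3 CPM in Δ/Δ PBS (log2 ratio 1.05, past 1.5-fold in 4 of 4 gates). Ldhb was the lower one, at 4.20 CPM in Δ/Δ AraC + Dox and 6.94 CPM in Δ/Δ PBS (log2 ratio -0.72). Hk2 had a log2 ratio of 0.33. The 4 MA9 comparisons share libraries with each other, so none of them is independent of the next.

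**Figure D4:**
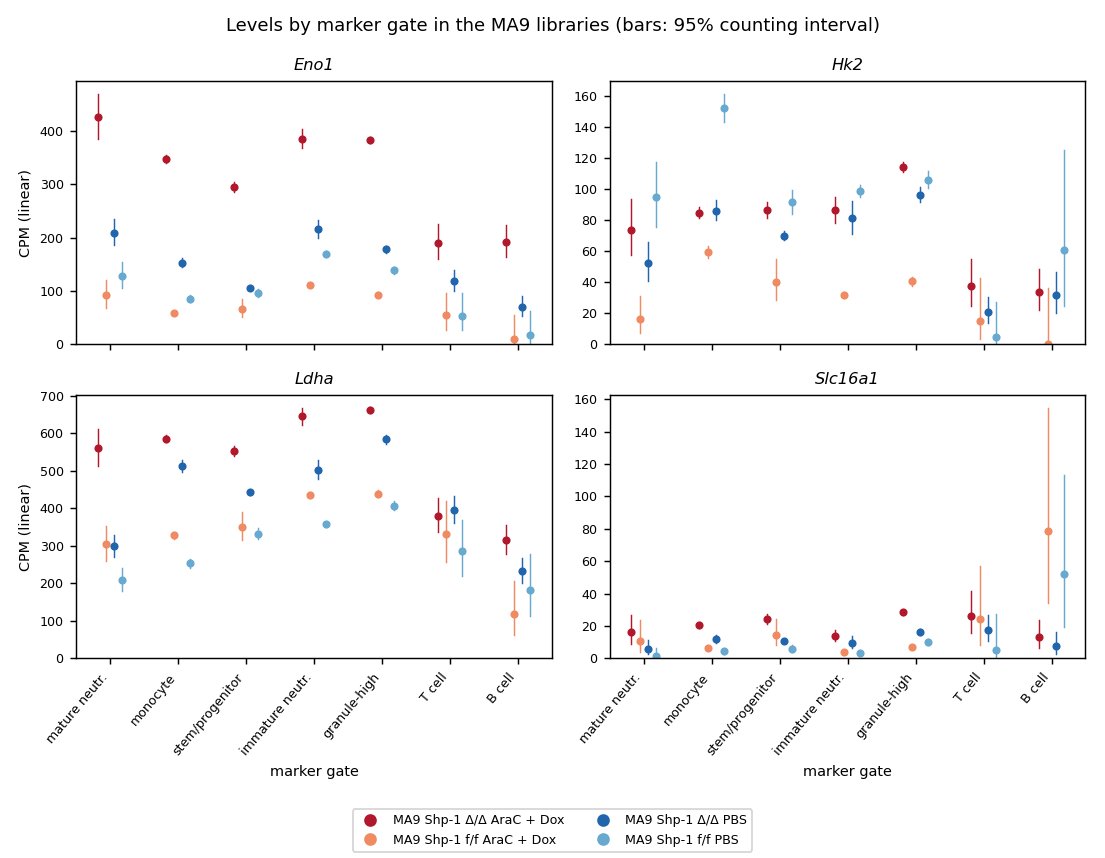
CPM of Eno1, Hk2, Ldha and Slc16a1 (1 panel each) by marker gate in the 4 MA9 libraries, 1 point each with its 95% counting interval. In every gate Eno1 is highest in the Δ/Δ-labelled AraC + Dox library (191 to 426 CPM), and Hk2 is lower in the f/f-labelled AraC + Dox library than in the f/f-labelled PBS library in the 5 myeloid gates.

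AraC + Dox was last set against PBS in the HM libraries. Of 32 measured members 4 were at least 1.5-fold higher with AraC + Dox (12.5%) and 4 lower (12.5%), against 28.2% and 20.2% of all 8748 genes, both under the background. All genes split 2465 higher to 1768 lower on total UMIs, 1992 to 2212 with median-of-ratios size factors and 1499 to 2790 without the most abundant genes. Hk2 stood at 53.7 CPM in HM AraC + Dox and 136 CPM in HM PBS (log2 ratio -1.34, counting interval -1.43 to -1.26), Hk3 at 62.0 CPM in HM AraC + Dox and 147 CPM in HM PBS (log2 ratio -1.25, counting interval -1.32 to -1.17). Inside the gates the shares of all genes 1.5-fold higher and lower were 13.9% and 30.5% in immature neutrophil-gated cells, 27.9% and 20.3% in mature neutrophil-gated cells and 11.3% and 22.1% in monocyte-gated cells. Hk2 and Hk3 were both past 1.5-fold lower in 3 of 3 gates, from -1.44 to -0.60 for Hk2 and from -1.15 to -0.71 for Hk3. Rpia was lower too, at 17.9 CPM in HM AraC + Dox and 34.7 CPM in HM PBS, and by -1.57 and -1.25 in both gates in which it could be measured.

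Slc2a3 had 122 CPM in HM AraC + Dox and 220 CPM in HM PBS (log2 ratio -0.85), beside a mature neutrophil list at 12125 CPM in HM AraC + Dox and 21698 CPM in HM PBS. Inside the gates its log2 ratio was 0.42 in immature and -0.35 in mature neutrophil-gated cells. Slc16a1, Pgam1, Pdk1 and Pdhb were higher, with log2 ratios of 1.73, 0.70, 0.67 and 0.63. A single member was 1.5-fold higher with median-of-ratios size factors or without the most abundant genes, and without the mitochondrial limit, which restores most HM PBS barcodes, 7 were higher and Pdk1 changed sign to -0.316. Markers of other cell types differed as well: in HM AraC + Dox and HM PBS, T cell markers were at 340 and 36.5 CPM, mast cell and basophil markers at 699 and 3.57 CPM, dendritic cell markers at 767 and 66.5 CPM, plasma cell markers at 723 and 115 CPM and erythroid markers at 3.43 and 214 CPM. Their part was not tested.

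The 31 other genes of the pathway were counted in the same pairs, beside the shares of all genes higher and lower. Past 1.5-fold in Δ/Δ against f/f with PBS were 3 higher and 3 lower of 18 measured (all genes 15.1% and 8.75%), and with AraC + Dox 5 and 4 of 18 (all genes 16.6% and 12.7%). In AraC + Dox against PBS labelled f/f 1 of 18 was higher and 1 lower (all genes 1.89% and 3.58%). In the same comparison labelled Δ/Δ none of 18 was higher and Txnip was lower (all genes 3.59% and 7.44%), and in HM 3 of 15 were higher and 2 lower (all genes 28.2% and 20.2%). Adpgk was among the lower genes in both Δ/Δ against f/f pairs and in HM, where the immature neutrophil list was also lower.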

How the data were processed

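Droplet single-cell RNA libraries of leukaemic mouse marrow were used, 1 per group and 6 in all. The authors deposited UMI counts per gene and cell. Per the file headers, the MA9 matrices were written by Cell Ranger 3.0.2, and build mm10 is given in the submitters' processing notes; the HM matrices carry no software name and list other features (30406 shared). Per the labels' protocols the kit was the Chromium 3′ kit.

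The 36 members, the gates and the list of 31 other pathway genes were chosen with earlier results of these data known. Gates were settled from marker levels. Cells under 500 genes or over 10% mitochondrial UMIs were dropped. UMIs were summed per library or gate and given as CPM. Library pairs, with 1 library per group, were described by ratios without a test: measured means 5 CPM or more in either library (20 CPM and 50 cells within gates), and 1.5-fold is the rule of size. Intervals are 95% and cover counting error only. Gates were compared within libraries by edgeR 4.0.16 (R 4.3.3; glmQLFit and glmQLFTest, TMM, library block, Benjamini-Hochberg over all genes) with at least 20 cells per gate and library; p-values measure the spread between these 6 libraries, which differ in model and treatment. The code was tested on simulated counts. Named are the members that pass and those whose calls a role turns on. Alternatives were DESeq2 1.42.0, other scalings, filters, gates and doublet removal by Scrublet, whose own threshold failed in 4 libraries and was replaced by 0.1954. Scaling by total UMIs and cells within a window of UMIs were chosen after seeing the data. Gene and promoter positions are on GRCm38.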

Additional observations from a re-analysis of the deposited data

Results flagged for a closer look

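Several members had log2 ratios of opposite sign in 2 pairs of libraries, with the smaller of the 2 at least 0.292 in size. With 1 library per group the difference was not tested in any of them, and the pairs share libraries. Hk2 stood at 1.21 in Δ/Δ against f/f with AraC + Dox and at -0.51 in Δ/Δ against f/f with PBS. For AraC + Dox against PBS, the values in the MA9 libraries labelled Δ/Δ and f/f were 0.30 and -0.64 for Slc2a3, 0.33 and -1.39 for Hk2, 1.37 and -0.565 for Eno1, and -0.72 and 0.39 for Ldhb. In HM the same treatment pair gave -0.85 for Slc2a3 and -1.34 for Hk2, against 0.30 and 0.33 in the MA9 libraries labelled Δ/Δ.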

How the results depend on the processing

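No paired analysis was possible because each group held 1 sample, for comparisons between groups; the 5 gate tests are paired within libraries by the library block. No called member changed sign under an alternative listed at the outset in the 5 gate tests, and 13 of 22 (stem and progenitor), 17 of 23 (monocyte), 9 of 14 (mature neutrophil), 3 of 5 (T over B) and 14 of 19 (cycling) called members were called in all of those in which they were tested. In each case below the cause was not tested, unless fewer genes or libraries entered.

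On total UMIs, chosen after seeing the data, 7 members were higher and 12 lower in stem and progenitor cells, with Gapdh at 0.016, 8 higher and 11 lower in monocytes, with Pgls at 0.057, and 10 lower in mature neutrophils. There all genes split 1659 higher to 2460 lower on total UMIs, and 2280 to 1964 with TMM. T over B split 495 to 642, and 586 to 537 with TMM. Without the library block 1 member was higher in stem and progenitor cells, 3 were lower in mature neutrophils and 1 was lower in cycling cells. Without the filter on low counts 5 were higher in monocytes and 7 in T cells. The MA9 libraries alone gave 6 higher in monocytes, Scrublet removal 1 lower in T cells, and 1 more marker per gate 2 lower in cycling cells. At 6000 to 12000 UMIs 2 were higher and 1 lower in cycling cells, with Hk2 at -0.62 and Gpi1 at -0.15. Leaving out single libraries gave 1 to 4 higher in stem and progenitor cells, 2 to 5 higher in monocytes, 1 to 4 higher and 1 to 3 lower in T cells, and 0 to 4 lower in cycling cells (0 without the Δ/Δ-labelled MA9 PBS library, where Slc2a6 and Aldoc were not tested).

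For HM, 1 member was higher with median-of-ratios size factors, 1 higher and 10 lower without genes over 0.5% of UMIs, 7 higher without the mitochondrial limit (Pdk1 at -0.316), 2 higher at 20 CPM or more and 2 with the mean of each cell's own CPM. For Δ/Δ against f/f with PBS, 0 were higher at 20 CPM or more, and 1 was lower with equal weight of 4 myeloid gates (Ldhb 0.022, Slc16a3 0.18, G6pdx 0.51). With AraC + Dox, 8 were lower with the mean of cells, and equal weights put Slc2a6 at -0.26. For AraC + Dox against PBS labelled Δ/Δ, 0 were lower at 20 CPM or more, 3 with no minimum, 2 with the mean of cells and 2 with equal weights. For the pair labelled f/f, 1 was higher with no minimum, 1 with the mean of cells and 3 with equal weights, where 1 was lower. Equal weights were not run for HM, where HM PBS held 9 stem and progenitor cells.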
